A study of Homo sapiens with 12 samples.

Results

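The 51 genes described here encode the enzymes that build the N-glycan precursor, transfer it to proteins, trim it and branch it. They were chosen by their known role, from a list of symbols with no threshold on measured values but drawn up with earlier results of these data known, and all 51 were found among the 60656 gene identifiers of the count table. RNA was sequenced from 3 lines of human metastatic melanoma cells, named A2058, A375 and SKMEL-5 in the labels, each grown under hypoxia (1% oxygen) or under normoxia (atmospheric oxygen), with 2 libraries in each of the 6 groups and 12 in all. No genotype, drug or transgene separates the groups of a line, and the labels give no length of exposure to low oxygen. The question was how low oxygen changes gene expression related to glycosylation, with normoxia as the reference.

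An N-glycan starts as a sugar tree built on dolichol, a lipid of the endoplasmic reticulum membrane. The first sugars are added on the cytosolic face, the tree is flipped, and mannose and glucose are added on the lumenal face. The oligosaccharyltransferase complex then moves the whole tree onto asparagine residues of proteins entering the endoplasmic reticulum. Glucose and mannose trimming follow, with a glucosyltransferase that puts glucose back on misfolded proteins, and Golgi GlcNAc-transferases add the branches. Branched N-glycans on surface receptors have long been studied in melanoma cell invasion.

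Each library held between 33831569 and 54202819 counts, and the upper limit for a gene without a count, 3 counts, was 0.0553 to 0.0887 CPM (counts relative to the library total). All levels below are CPM scaled by edgeR's TMM factors. Before any comparison, 2 features of the libraries bear on the results. First, 1 hypoxic library of each line stood apart. Hypoxia 2 of A2058 scored 72.7, hypoxia 1 of A375 scored 132 and hypoxia 1 of SKMEL-5 scored 108 on the first within-line principal component, which held 47.1% of the variance, and every other library scored below 0. Second, libraries named A375 correlated with libraries named SKMEL-5 at 0.912 to 0.990, against 0.917 to 0.982 among the A375 libraries themselves, and A2058 libraries correlated with both at 0.810 to 0.880. These correlations do not separate the libraries named A375 from those named SKMEL-5, and whether they are 2 lines was not tested, so the mean of the 3 lines and statements on every line may rest on 2 sources of cells. Of 7 melanocyte markers, all had counts in A2058 and 5 in A375 and SKMEL-5, where TYR and MLANA had 0 counts. SOX10 lay at 947 to 1684 CPM in A2058 and 765 to 1265 CPM in the other lines, and S100B at 59.7 to 132 against 16.8 to 231 CPM. PMEL lay at 358 to 2946 CPM in A2058 against 0.223 to 1.24 CPM in the others, and DCT at 618 to 2530 against 0.143 to 2.64 CPM. MITF averaged 264 CPM in A2058, 22.6 CPM in A375 and 138 CPM in SKMEL-5. Summed fibroblast markers reached 63.6 to 106 CPM in hypoxic against 25.3 to 27.3 CPM in normoxic A2058 libraries, 14.8 to 16.7 against 15.1 to 17.4 CPM in A375, and 20.5 to 21.5 against 10.3 to 13.3 CPM in SKMEL-5. The part of these differences in the results was not tested. Counts from the mitochondrial genome took 0.648% to 3.32% of hypoxic and 2.79% to 20.1% of normoxic libraries. The hypoxia genes CA9, VEGFA, NDRG1 and ADM were higher in every hypoxic library of each line than in its normoxic libraries and rose in the mean of the 3 lines, CA9 by 6.77 ± 1.18 and VEGFA by 1.82 ± 0.26 on the log2 scale (SE).

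The genes were expressed over a wide range. Per kilobase of annotated exon, mean levels over the 12 libraries were highest for OST4, a small oligosaccharyltransferase subunit, at 209 CPM per kilobase, followed by PRKCSH at 156, GANAB at 145, DDOST at 137 and RPN2 at 121 CPM per kilobase. The lowest were the branching genes MGAT4C, at 0.0106, and MGAT3, at 0.161 CPM per kilobase. The 5 highest genes encode 3 subunits of oligosaccharyltransferase and both subunits of glucosidase II, while other oligosaccharyltransferase genes lay lower, MAGT1 at 11.2 CPM per kilobase. Among the branching genes MGAT4B reached 38.4 CPM per kilobase.

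The promoters of 4 genes are shown because their RNA carries the patterns described below. GANAB and UGGT2 belong to the 3 genes of the set with higher levels in both hypoxic libraries of every line, and MAN1A1 and MAN1C1 encode alpha-mannosidases of 1 family that differed in opposite directions between A2058 and the other lines. These 4 were chosen after their values were seen. Each is the 300-base window that RefSeq (GRCh38.p14) gives from 250 bases before to 50 bases after the gene start, written 5′ to 3′ along the gene, with capitals on ACGTG and GCGTG, the core letters of hypoxia response elements, on either strand.
GANAB (chr11:62646564-62646863, minus strand): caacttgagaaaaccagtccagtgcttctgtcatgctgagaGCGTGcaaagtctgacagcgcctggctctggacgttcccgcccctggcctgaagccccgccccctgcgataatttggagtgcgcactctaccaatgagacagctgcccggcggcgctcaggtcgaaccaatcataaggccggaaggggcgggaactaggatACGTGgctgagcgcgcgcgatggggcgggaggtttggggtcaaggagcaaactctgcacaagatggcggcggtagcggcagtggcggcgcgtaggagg
UGGT2 (chr13:96053352-96053651, minus strand): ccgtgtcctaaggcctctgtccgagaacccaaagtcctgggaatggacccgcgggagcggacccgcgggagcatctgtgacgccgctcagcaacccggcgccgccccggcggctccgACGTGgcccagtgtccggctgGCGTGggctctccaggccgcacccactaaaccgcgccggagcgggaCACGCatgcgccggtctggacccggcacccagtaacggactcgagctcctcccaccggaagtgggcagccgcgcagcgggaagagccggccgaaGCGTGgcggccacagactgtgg
MAN1A1 (chr6:119349712-119350011, minus strand): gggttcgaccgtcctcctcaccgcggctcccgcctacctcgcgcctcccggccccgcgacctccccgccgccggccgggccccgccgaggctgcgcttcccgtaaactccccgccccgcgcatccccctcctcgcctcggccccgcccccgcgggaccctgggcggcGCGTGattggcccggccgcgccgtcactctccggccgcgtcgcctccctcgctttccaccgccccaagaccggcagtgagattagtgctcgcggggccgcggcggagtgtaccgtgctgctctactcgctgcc
MAN1C1 (chr1:25616541-25616840, plus strand): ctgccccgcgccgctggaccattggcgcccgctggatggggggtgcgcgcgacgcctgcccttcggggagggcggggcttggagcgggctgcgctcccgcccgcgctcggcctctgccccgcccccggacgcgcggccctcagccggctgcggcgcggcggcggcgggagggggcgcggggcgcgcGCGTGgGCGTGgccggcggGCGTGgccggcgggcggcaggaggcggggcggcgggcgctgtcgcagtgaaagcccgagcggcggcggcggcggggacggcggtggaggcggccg
The GANAB window holds 1 ACGTG and 1 GCGTG, and the UGGT2 window holds 4 matches. Among the 43 genes with a window, 17 held ACGTG on either strand and 27 held GCGTG, against 21.6% and 36.3% of all 27305 windows. Both cores contain CG, and the 4 printed windows were 62.7% to 85.3% G and C, with 25 to 57 CG each. The counts were not adjusted for base content, and no excess was tested. CCAAT followed by CCACG at the spacing of the endoplasmic reticulum stress element was found in 1 of the 43 windows, that of the mannosyltransferase gene ALG12, and in 0.0806% of all windows. The starts of ALG12 and CRELD2 overlap on opposite strands, so the match cannot be assigned to ALG12 alone. CRELD2 is among the endoplasmic reticulum stress targets counted below. CACGTG, which contains ACGTG, was found in 6 of the 43 and in 7.43% of all windows. The MAN1C1 window lies upstream of the gene start in the GENCODE 29 annotation. A match describes the letters of the window and not binding.

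In the mean of the 3 lines, no gene of the set passed the test for hypoxia against normoxia. All 15 genes of the set for oligosaccharyltransferase and glucose trimming had log2 differences above 0 in that mean, also without the libraries that stood apart. Not all were above 0 in A375 and SKMEL-5 taken singly. KRTCAP2, an oligosaccharyltransferase subunit outside the set, differed by -0.92 in the mean. Dolichol supply had a median of -0.29 and cytosolic assembly one of -0.12, but without those libraries the medians were 0.03 and 0.10, so no direction held for these steps. By edgeR's quasi-likelihood test with Benjamini-Hochberg adjustment, 0 of 51 genes were called at an adjusted p of 0.05, where 1.12% of the 19636 genes tested were. At an unadjusted p under 0.05 there were 10, or 19.6%, against 19% of all tested genes. All 10 were higher in hypoxia, where 12% of all tested genes were higher at that p: TUSC3, GANAB, MAN1B1, UGGT2, PRKCSH, DDOST, MGAT4C, DPM3, RPN1 and STT3A. DESeq2 called 4, TUSC3, GANAB, MAN1B1 and UGGT2, all higher, against 7.86% of all tested genes. The log2 difference was above 0 for 34 and below 0 for 17 of the 51. The median was 0.24 against 0.02 over all tested genes, of which 51% were above 0. MAN1A1 and MGAT4C, with 4 counts each in A2058, were among the 34. Without the 3 libraries that stood apart, 40 of the 51 were above 0 and the median was 0.24. In that fit edgeR called 0 of the 51, with 8 at an unadjusted p under 0.05, where 0.147% of all tested genes were called. These are bulk RNA values, in which fewer cells of a type and less RNA per cell cannot be told apart.

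**Figure D1:**
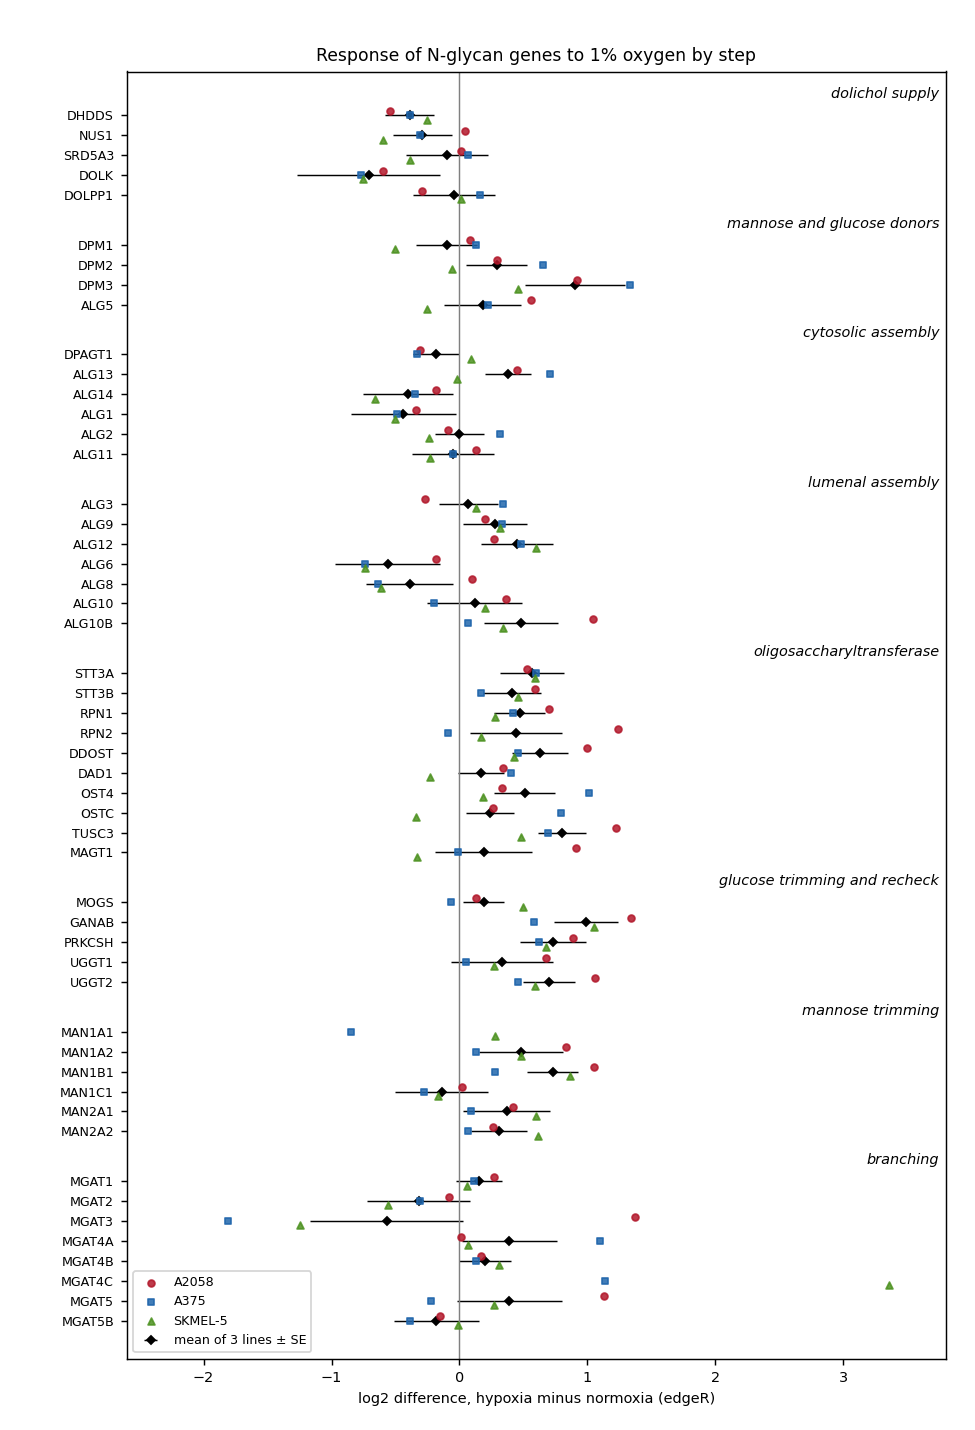
Log2 difference in level, hypoxia minus normoxia, for the genes of each of the 8 steps, with the mean of the 3 lines and its standard error and a mark for each line. All 10 oligosaccharyltransferase genes of the set and all 5 glucose trimming genes lie above 0 in the mean, and all 5 dolichol supply genes below it. The mean and the A2058 mark are left out for MAN1A1 and MGAT4C, which had 4 counts each in A2058.

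The 5 dolichol supply genes, which make and recycle the lipid carrier, were all below 0 in the mean of the 3 lines, none past the test, with a median log2 difference of -0.29 against 0.02 over all tested genes. DHDDS encodes the catalytic subunit of the cis-prenyltransferase that makes the dolichol chain. Its levels were 22.7 and 18.8 CPM in hypoxic against 24 and 36.3 CPM in normoxic A2058 libraries, 28.4 and 33 against 35 and 45.5 CPM in A375, and 33.8 and 31.2 against 33.3 and 43.8 CPM in SKMEL-5. Hypoxic libraries were lower without overlap in A2058 and A375 and overlapped in SKMEL-5, and the log2 difference was -0.39 ± 0.19 (SE; edgeR adjusted p = 0.298). DOLK, the kinase that makes dolichol phosphate, had 23.3 and 4.48 CPM in hypoxic against 19.5 and 22.7 CPM in normoxic A2058 libraries. It had 2.71 and 26.7 CPM in hypoxic against 19.9 and 30.3 CPM in normoxic A375 libraries, and 5.53 and 23.2 against 21.6 and 26.7 CPM in SKMEL-5. In every line the low value was that of the library that stood apart, and the other hypoxic library was within or above the normoxic range in each line. The log2 difference of -0.71 ± 0.56 (adjusted p = 0.506) became 0.04 without those 3 libraries, and the median of the 5 genes became 0.03, with 3 of 5 above 0. NUS1, the partner subunit of DHDDS, differed by -0.29, SRD5A3, the polyprenol reductase, by -0.10 and DOLPP1, the dolichyl diphosphate phosphatase, by -0.04 on the log2 scale.

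Of the 4 genes that load mannose or glucose onto dolichol phosphate, 3 were above 0 and none passed the test. DPM3, the membrane tether of dolichol-phosphate mannose synthase, had 47.6 and 88.6 CPM in hypoxic against 52.4 and 19.6 CPM in normoxic A2058 libraries, 66.1 and 18.4 against 19.9 and 13.6 CPM in A375, and 42.5 and 21.3 against 30.3 and 16.2 CPM in SKMEL-5. Hypoxic and normoxic libraries overlapped in each line, and the highest value of each line was in the library that stood apart. The log2 difference was 0.90 ± 0.39 (adjusted p = 0.241), and 0.12 without those libraries. DPM2, the regulatory subunit, differed by 0.29, ALG5, the dolichol-phosphate glucose synthase, by 0.18 and DPM1, the catalytic subunit, by -0.10 on the log2 scale. Of the exonic bases of DPM2, 19.2% are shared with an antisense gene.

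Of the 6 genes of cytosolic assembly, which adds the first sugars, 5 were at or below 0 in the mean and 1 above, none past the test, with a median of -0.12. Without the 3 libraries that stood apart, 5 of the 6 were above 0 and the median was 0.10. ALG13, the catalytic partner of ALG14 in the transfer of the second GlcNAc, had 22.3 and 27 CPM in hypoxic against 19 and 17 CPM in normoxic A2058 libraries, 34.8 and 27.5 against 19.5 and 18.6 CPM in A375, and 30.1 and 30.7 against 33.4 and 28.3 CPM in SKMEL-5. It was higher without overlap in A2058 and A375 only, and the log2 difference was 0.38 ± 0.18 (adjusted p = 0.276). ALG1, which adds the first mannose, had 29.2 and 13.3 CPM in hypoxic against 21.3 and 32.7 CPM in normoxic A2058 libraries, 9.92 and 38.1 against 22.4 and 45.3 CPM in A375, and 11 and 30.8 against 20.3 and 38.6 CPM in SKMEL-5. Its groups overlapped in each line, the lowest value of each line was in the library that stood apart, and the log2 difference of -0.44 ± 0.41 (adjusted p = 0.57) became 0.09 without those libraries. Of ALG1's exonic bases, 42.3% are shared with other genes. DPAGT1, the GlcNAc-phosphotransferase that tunicamycin inhibits, differed by -0.18 ± 0.18 (SE), ALG14 by -0.40, and the mannosyltransferases ALG2 and ALG11 by 0.00 and -0.05 on the log2 scale. ALG11 shares 39.7% of its exonic bases with UTP14C on the same strand, so its value is uncertain.

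The 7 genes of lumenal assembly, which finishes the precursor, had a median log2 difference of 0.12, or 0.01 without the 3 libraries that stood apart, with 5 above 0 and 2 below, and none passed the test. ALG6, which adds the first glucose, had 12.3 and 6.18 CPM in hypoxic against 11.7 and 9.25 CPM in normoxic A2058 libraries, 1.89 and 10 against 9.13 and 10.9 CPM in A375, and 3.77 and 10.5 against 11.7 and 12.1 CPM in SKMEL-5. The groups overlapped in A2058 and A375 and were separate, hypoxia lower, in SKMEL-5. Its log2 difference of -0.56 ± 0.41 (adjusted p = 0.471) became -0.01 without the 3 libraries. ALG8, the next glucosyltransferase, differed by -0.39 ± 0.34 (SE). ALG10B, a terminal glucosyltransferase, had 9.60 and 10.7 CPM in hypoxic against 3.64 and 6.22 CPM in normoxic A2058 libraries, 7.21 and 14.5 against 10.3 and 10.3 CPM in A375, and 9.18 and 14.2 against 6.23 and 12.3 CPM in SKMEL-5. It was separate and higher in hypoxic A2058 libraries only (log2 difference over the lines 0.48 ± 0.29, adjusted p = 0.38), and reads of ALG10B and its near-identical copy ALG10 (0.12 ± 0.37) may have been split between them. The mannosyltransferases ALG3, ALG9 and ALG12 differed by 0.07, 0.28 and 0.45 on the log2 scale, and ALG12 shares 42.1% of its exonic bases, among others with CRELD2.

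All 10 oligosaccharyltransferase subunit genes were above 0 in the mean of the 3 lines, with a median log2 difference of 0.45 against 0.02 over all tested genes, and 10 of 10 were above 0, with a median of 0.45, without the libraries that stood apart. By edgeR 0 of the 10 were called, 4 had an unadjusted p under 0.05, TUSC3, DDOST, RPN1 and STT3A, and DESeq2 called 1, TUSC3. The shares of all tested genes were 1.12%, 19% and 7.86% in the same order. Summed over the 10 genes, the level was 2268 and 3071 CPM in hypoxic against 1467 and 1574 CPM in normoxic A2058 libraries, 1773 and 2095 against 1315 and 1643 CPM in A375, and 1409 and 2080 against 1315 and 1568 CPM in SKMEL-5. The sums were separate in A2058 and A375 and overlapped in SKMEL-5.

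The catalytic subunits define 2 forms of the complex: STT3A acts on chains as they enter the endoplasmic reticulum, and STT3B takes sites that STT3A missed, with TUSC3 or MAGT1 as its oxidoreductase partner. STT3A had 253 and 335 CPM in hypoxic against 174 and 234 CPM in normoxic A2058 libraries, 340 and 224 against 129 and 244 CPM in A375, and 250 and 214 against 108 and 199 CPM in SKMEL-5. STT3B had 228 and 254 CPM in hypoxic against 118 and 201 CPM in normoxic A2058 libraries, 166 and 189 against 138 and 179 CPM in A375, and 169 and 184 against 89.8 and 166 CPM in SKMEL-5. Both catalytic genes were separate and higher in hypoxic A2058 and SKMEL-5 libraries and overlapped in A375. The log2 differences were 0.57 ± 0.25 for STT3A (adjusted p = 0.253) and 0.41 ± 0.23 for STT3B (adjusted p = 0.343), and STT3A's was 0.33 without the libraries that stood apart.

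TUSC3 had 138 and 191 CPM in hypoxic against 79.7 and 61.5 CPM in normoxic A2058 libraries, 84.6 and 85 against 48.1 and 57.4 CPM in A375, and 62.5 and 83.8 against 47.2 and 57.4 CPM in SKMEL-5. Every hypoxic library was above both normoxic libraries of its line, and the log2 difference of 0.80 ± 0.19 had the smallest adjusted p of the set, 0.0695 by edgeR and 0.00179 by DESeq2. It was 0.76 without the libraries that stood apart. MAGT1 had 76.8 and 92.3 CPM in hypoxic against 34.2 and 55.9 CPM in normoxic A2058 libraries, 15.5 and 73.2 against 43.3 and 46 CPM in A375, and 21.8 and 73.1 against 53.3 and 66.1 CPM in SKMEL-5. MAGT1 was separate and higher in hypoxic A2058 libraries, while in A375 and SKMEL-5 the library that stood apart was the lowest of its line and the other hypoxic library the highest. Its log2 difference was 0.19 ± 0.38 (adjusted p = 0.83), and 0.57 without the libraries that stood apart.

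Of the shared subunits, DDOST had 461 and 696 CPM in hypoxic against 315 and 264 CPM in normoxic A2058 libraries, 361 and 488 against 287 and 330 CPM in A375, and 271 and 463 against 259 and 287 CPM in SKMEL-5. Hypoxic libraries were separate and higher in A2058 and A375 and overlapped in SKMEL-5 (log2 difference 0.63 ± 0.22, adjusted p = 0.177). RPN1, a large membrane subunit, differed by 0.47 ± 0.20 (adjusted p = 0.246) with the same pattern of overlap. RPN2 differed by 0.44 ± 0.36, OST4 by 0.51 ± 0.24, DAD1 by 0.17 ± 0.18 and OSTC, a subunit of the STT3A form, by 0.24 ± 0.19 on the log2 scale (SE). DDOST shares 15.7% and OST4 21.0% of their exonic bases with other genes.

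All 5 genes of glucose trimming and of the recheck of folding were above 0 in the mean of the 3 lines, with a median log2 difference of 0.70 with and without the libraries that stood apart, the highest of the 8 steps. By edgeR 0 of the 5 were called, 3 had an unadjusted p under 0.05, GANAB, UGGT2 and PRKCSH, and DESeq2 called 2, GANAB and UGGT2. The shares of all tested genes were 1.12%, 19% and 7.86% in the same order. Summed levels were 1758 and 2948 CPM in hypoxic against 1073 and 1213 CPM in normoxic A2058 libraries, 2810 and 2134 against 1420 and 2002 CPM in A375, and 2035 and 1995 against 974 and 1389 CPM in SKMEL-5. These sums were separate, hypoxia higher, in all 3 lines, and GANAB and PRKCSH, the catalytic and beta subunits of glucosidase II, made up most of them.

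GANAB had 902 and 1645 CPM in hypoxic against 455 and 551 CPM in normoxic A2058 libraries, 977 and 808 against 509 and 682 CPM in A375, and 689 and 828 against 260 and 471 CPM in SKMEL-5. Every hypoxic library was above both normoxic libraries of its line. The log2 difference was 0.99 ± 0.25 (edgeR adjusted p = 0.0842, DESeq2 adjusted p = 0.00348), and 0.80 without the libraries that stood apart. PRKCSH had 478 and 895 CPM in hypoxic against 399 and 340 CPM in normoxic A2058 libraries, 1629 and 985 against 662 and 1039 CPM in A375, and 1161 and 844 against 567 and 683 CPM in SKMEL-5. It overlapped in A375 only, and the library that stood apart was the highest of each line. Its log2 difference of 0.73 ± 0.26 (adjusted p = 0.176) was 0.32 without those libraries.

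UGGT2 and UGGT1 encode the glucosyltransferases that mark misfolded glycoproteins for another round of folding, UGGT1 being the main one. UGGT2 had 41.7 and 62.9 CPM in hypoxic against 23.5 and 26.7 CPM in normoxic A2058 libraries, 32.3 and 38.2 against 27.3 and 23.9 CPM in A375, and 26.1 and 39.4 against 20.3 and 23.3 CPM in SKMEL-5. Its groups did not overlap in any line, and its log2 difference was 0.70 ± 0.20 (edgeR adjusted p = 0.113, DESeq2 adjusted p = 0.0156), the same without the libraries that stood apart. UGGT1 differed by 0.33 ± 0.40, and MOGS, glucosidase I, by 0.19 ± 0.16 on the log2 scale (SE). With TUSC3 and GANAB, UGGT2 completed the 3 of 51 genes that were higher without overlap in every line, where 4.86% of all tested genes were. None of the 51 was lower without overlap in every line, where 2.79% of all tested genes were.

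Of the 6 mannosidase genes, 5 were above 0, with a median log2 difference of 0.43, or 0.60 without the libraries that stood apart. The 5 include MAN1A1, at 1.21 ± 0.67 (SE), which had 4 counts in A2058 and differed by -0.85 in A375 and 0.28 in SKMEL-5. By edgeR 0 were called, against 1.12% of all tested genes, and 1 gene had an unadjusted p under 0.05, against 19%. That gene, MAN1B1, was also the 1 that DESeq2 called, against 7.86% of all tested genes. MAN1B1 encodes an alpha-mannosidase with a role in the disposal of misfolded glycoproteins. It had 118 and 181 CPM in hypoxic against 70.3 and 74.6 CPM in normoxic A2058 libraries, 66.8 and 82.2 against 51.3 and 71.4 CPM in A375, and 74.3 and 85.9 against 36.7 and 51.3 CPM in SKMEL-5. It was separate and higher in hypoxic A2058 and SKMEL-5 libraries and overlapped in A375, and the log2 difference was 0.73 ± 0.20 (edgeR adjusted p = 0.102, DESeq2 adjusted p = 0.0129), or 0.68 without the libraries that stood apart. The Golgi alpha-mannosidase genes MAN1A2, MAN2A1 and MAN2A2 differed by 0.48, 0.37 and 0.31 and MAN1C1 by -0.14 on the log2 scale, and MAN1A1 is given with the lines below because it was near 0 in A2058.

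The 8 GlcNAc-transferase genes of branching had a median log2 difference of 0.18, or 0.16 without the libraries that stood apart, with 5 above 0 and 3 below. By edgeR and DESeq2 0 were called, against 1.12% and 7.86% of all tested genes. At an unadjusted p under 0.05 there was 1, MGAT4C, against 19% of all tested genes. MGAT4C, which had 4 counts in A2058, was among the 5 above 0. MGAT5 makes the beta1,6 branch that has been tied to tumour cell invasion. It had 192 and 276 CPM in hypoxic against 70.7 and 144 CPM in normoxic A2058 libraries, 30.9 and 121 against 76.1 and 101 CPM in A375, and 40.2 and 125 against 37.7 and 99.5 CPM in SKMEL-5. It was separate and higher in hypoxic A2058 libraries and overlapped in A375 and SKMEL-5 (log2 difference 0.39 ± 0.41, adjusted p = 0.629, and 0.69 without the libraries that stood apart). MGAT1, which starts the first branch, differed by 0.15 ± 0.18, MGAT2, which starts the second, by -0.32 ± 0.40, and MGAT4B, the widely expressed enzyme of the beta1,4 branch, by 0.20 ± 0.20 (SE). Of MGAT2's exonic bases, 91.9% are shared with an antisense gene.

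**Figure D2:**
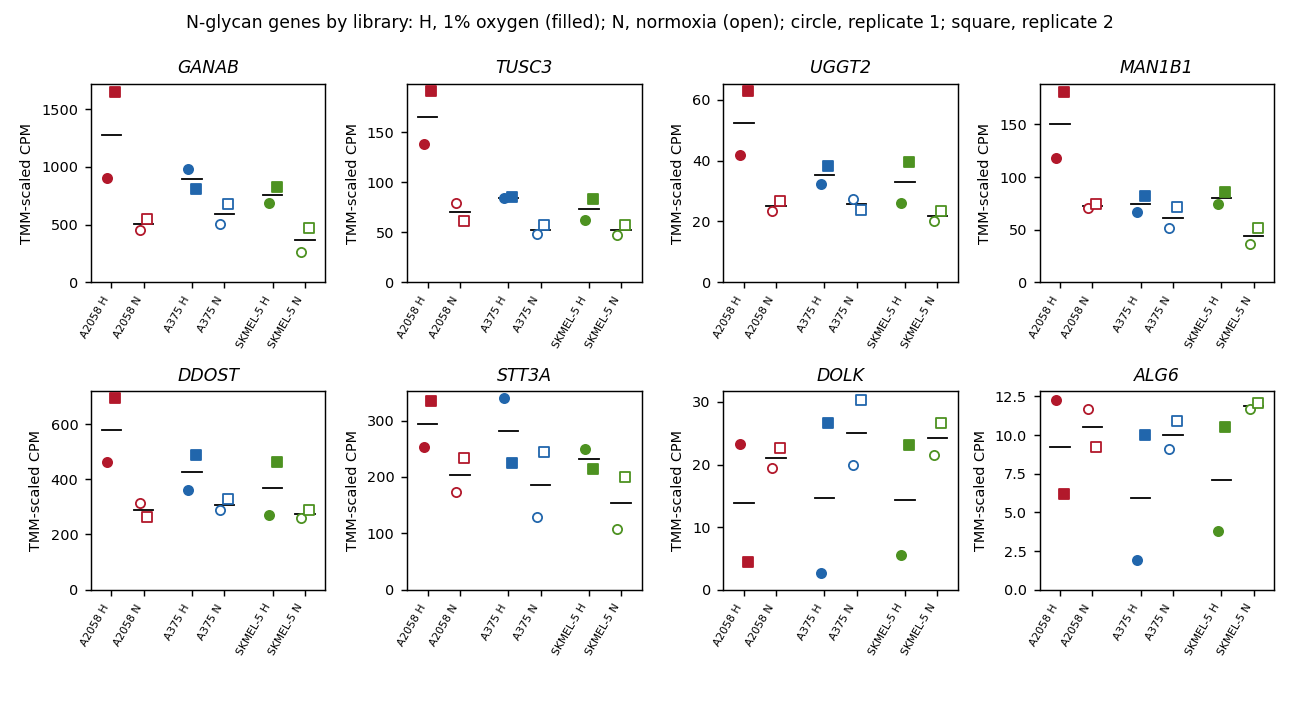
Level in CPM, on linear axes from 0, of GANAB, TUSC3, UGGT2, MAN1B1, DDOST, STT3A, DOLK and ALG6 in each of the 12 libraries, hypoxic (filled, H) left of normoxic (open, N) for each line, with circles for replicate 1, squares for replicate 2 and black bars for group means. TUSC3 and GANAB are higher in both hypoxic libraries of every line, while DOLK is low in 1 hypoxic library of each line, at 4.48 CPM in A2058, 2.71 CPM in A375 and 5.53 CPM in SKMEL-5.

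Line by line, the response was called for 0 of 51 genes in each line by edgeR. In A2058 the median log2 difference was 0.29, 40 genes were above 0, 6 had an unadjusted p under 0.05, TUSC3, GANAB, UGGT2, MAN1B1, DDOST and MAN1A1 (the last on 4 counts in all), and DESeq2 called 1, TUSC3, the shares of all tested genes being 50.1% above 0, 9.16% at that p, 1.82% called by DESeq2 and 0.0102% by edgeR. In A375 the median was 0.13, 32 were above 0, and 3 had an unadjusted p under 0.05, the oligosaccharyltransferase genes OST4 and OSTC and ALG13, while DESeq2 called 0. Of all tested genes 50.6% were above 0 in A375, 5.6% had that p, DESeq2 called 0.545% and edgeR 0%. In SKMEL-5 the median was 0.13, 30 were above 0, and 3 had an unadjusted p under 0.05, MGAT4C, MAN1B1 and GANAB, while DESeq2 called 0. Of all tested genes 49.6% were above 0 in SKMEL-5, 6.53% had that p, DESeq2 called 0.611% and edgeR 0%. Hypoxic libraries lay above normoxic ones without overlap for 23 genes of A2058, 11 of A375 and 10 of SKMEL-5, where 20.5%, 18.1% and 18.5% of all tested genes did. They lay below for 2, 3 and 6 genes, where 18.6%, 14.2% and 19.7% of all tested genes did. For 3 of the 51, ALG2, MGAT3 and MAN1A1, hypoxic libraries lay above without overlap in 1 line and below in another, where 5.86% of all tested genes did. For the difference between the lines in the response itself, edgeR called 0 of the 51 and 0% of all tested genes, 0 of the 51 had an unadjusted p under 0.05, where 1.6% of all tested genes did, and DESeq2 called 0, where it called 0.0407% of them, so no gene of the set was shown to respond differently in 1 line.

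The 2 hypoxic libraries of a line also differed from each other. Set against the other hypoxic library of its line, the library that stood apart was at least 2-fold lower in all 3 lines for 3 of the 51 genes, where 4.2% of all tested genes were, and at least 2-fold higher for 0, where 3.14% were. The 3 were DOLK, with log2 differences of -2.35 for A2058, -3.25 for A375 and -2.05 for SKMEL-5, ALG1, with -1.13, -1.93 and -1.48 in the same order, and MGAT2, with -1.06, -2.21 and -1.63. Medians by step leave out MAN1A1, MGAT4C and MGAT3 for their low counts, and the order of the steps depends on that. In A375 the median of these differences was lowest for lumenal assembly, -0.91, and dolichol supply, -0.82. It was 0.00 for oligosaccharyltransferase and -0.10 for glucose trimming. Mannose trimming was at -0.57 without MAN1A1, which differed by -1.81. In SKMEL-5 the median was -0.89 over 6 branching genes and -0.62 for lumenal assembly. The branching genes left out, MGAT4C and MGAT3, differed by 2.52 and 0.11 there. In A2058 the lowest median was that of cytosolic assembly, -0.48, with oligosaccharyltransferase at 0.36 and glucose trimming at 0.59. With 1 library on each side these are descriptions of pairs of libraries, and their cause was not tested.

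**Figure D3:**
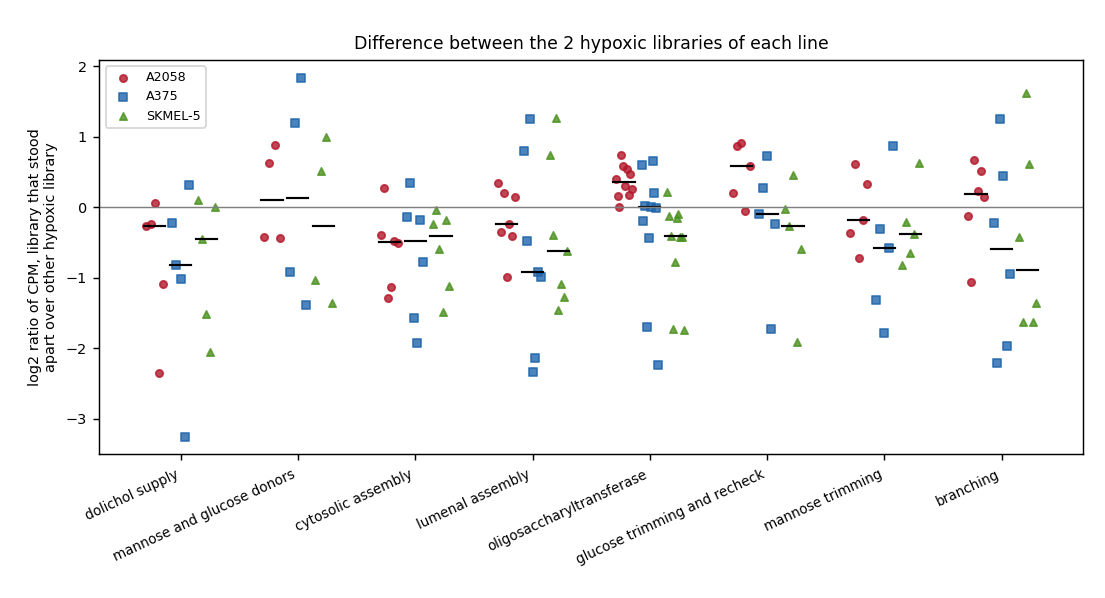
Log2 ratio of the level in the hypoxic library that stood apart to the level in the other hypoxic library of the same line, with 0.1 CPM added to both. Each point is 1 gene, grouped by step, and black bars are step medians: the lowest point in A375, at -3.25, is DOLK, and the oligosaccharyltransferase medians are 0.36 for A2058, 0.00 for A375 and -0.41 for SKMEL-5. MAN1A1, MGAT4C and MGAT3 are left out for their low counts.

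Paralogues and partner subunits were compared by the log2 ratio of their counts within a library, which does not depend on scaling. Over 8 pairs, 0 passed an exact permutation test of hypoxia against normoxia within lines (two-sided, smallest possible p 0.00926), and 0 had an unadjusted p under 0.05. A pair alone at that smallest p would not pass 0.05 after adjustment over the 8 pairs. The TUSC3/MAGT1 ratio was 0.85 and 1.05 in hypoxic against 1.22 and 0.14 in normoxic A2058 libraries. For A375 it was 2.45 and 0.22 under hypoxia against 0.15 and 0.32 under normoxia, and for SKMEL-5 1.52 and 0.20 under hypoxia against -0.17 and -0.20 under normoxia. Only in SKMEL-5 were the ratios separate, and the highest in A375 and SKMEL-5 were those of the libraries that stood apart. The mean difference was 0.80 (exact permutation p = 0.102, adjusted over 8 pairs 0.444) and 0.18 without those libraries. The GANAB/PRKCSH ratio differed by 0.29 (exact permutation p = 0.167), UGGT1/UGGT2 by -0.45 (exact permutation p = 0.25), and STT3A/STT3B by 0.16 (exact permutation p = 0.454). MAN1A1/MAN1A2 differed by -0.45 (exact permutation p = 0.148), and MAN2A1/MAN2A2, RPN1/RPN2 and MGAT4A/MGAT4B by 0.22, 0.20 and 0.06.

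More genes of the set were called between lines than between oxygen conditions. Against the mean of A375 and SKMEL-5 over both conditions, 13 of the 51 genes were called in A2058 by edgeR, where 33.7% of all tested genes were: 10 were higher, where 17.2% of all tested genes were, and 3 lower, where 16.5% were. The share of the set, 25.5%, was below that of all tested genes. At an unadjusted p under 0.05 there were 19, where 43.2% of all tested genes were. The genes higher in A2058 were MGAT4A, MAN1C1, MGAT3, MGAT5B, TUSC3, ALG9, MAN1B1, DAD1, ALG5 and MAN2A2, and the lower ones MAN1A1, MGAT4C and PRKCSH. Of these 13, 8 belong to mannose trimming or branching. DESeq2 called 14, the same 13 and DOLPP1, and 38.4% of all tested genes. The A2058 libraries lay above all others for 4 genes, ALG9, MAN1C1, MGAT4A and MGAT5B, and below them for 2, MAN1A1 and MGAT4C, where 10.6% and 11.9% of all tested genes did.

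MAN1A1, a Golgi alpha-mannosidase that prepares N-glycans for branching, was near the limit of detection in A2058. It had 0.0421 and 0.0575 CPM in hypoxic and 0 and 0 CPM in normoxic A2058 libraries. It had 1.74 and 6.36 CPM in hypoxic and 6.74 and 7.91 CPM in normoxic A375 libraries, and 4.77 and 7.85 against 2.87 and 7.55 CPM in SKMEL-5. The 4 A2058 libraries, with 4 counts in all, lay under the limit of 3 counts each, and no library of the other lines came near them. Against 2209 counts in the other lines, the ratio of rates was 0.00426 (95% exact interval 0.00116 to 0.0109, counting error only; edgeR adjusted p = 2.48e-05). MAN1C1, its family member, went the other way. It had 15.3 and 9.28 CPM in hypoxic and 13.3 and 11 CPM in normoxic A2058 libraries. Levels were 1.14 and 4.18 CPM in hypoxic and 2.14 and 4.33 CPM in normoxic A375 libraries, and 2.38 and 3.77 against 3.61 and 3.34 CPM in SKMEL-5. The lines did not overlap, and the log2 difference was 1.98 ± 0.36 (SE; edgeR adjusted p = 0.0016). MAN1A2, another member of the family, lay at 19.4 to 70.4 CPM in the A2058 libraries and 25.4 to 82 CPM in the others.

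MGAT4A makes the beta1,4 branch in a tissue-restricted way, beside the widely expressed MGAT4B. MGAT4A had 5.54 and 8.88 CPM in hypoxic and 7.13 and 7.16 CPM in normoxic A2058 libraries. It had 2.58 and 1.02 CPM in hypoxic and 0.895 and 0.782 CPM in normoxic A375 libraries, and 2.58 and 0.772 against 1.72 and 1.46 CPM in SKMEL-5. A2058 was higher without overlap, by 2.34 ± 0.38 on the log2 scale (adjusted p = 0.000723). MGAT4C, a relative without a settled activity, was low throughout, at 0.0421 and 0.0287 CPM in hypoxic and 0 and 0.0275 CPM in normoxic A2058 libraries. It had 0.631 and 0.204 CPM in hypoxic and 0.270 and 0.0947 CPM in normoxic A375 libraries, and 1.81 and 0.233 against 0.112 and 0.0810 CPM in SKMEL-5. The A2058 counts, 4 against 148 in the other lines, gave a ratio of rates of 0.0635 (95% exact interval 0.0171 to 0.166; edgeR adjusted p = 0.0112), and SKMEL-5 hypoxia 1, a library that stood apart, held the highest value.

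MGAT3 adds the bisecting GlcNAc, which blocks further branching. It had 2.36 and 3.33 CPM in hypoxic and 1.90 and 0.303 CPM in normoxic A2058 libraries. It had 0.0601 and 0.318 CPM in hypoxic and 1.15 and 0.213 CPM in normoxic A375 libraries, and 0.143 and 0.126 against 0.426 and 0.223 CPM in SKMEL-5. A2058 was higher by 2.67 ± 0.60 on the log2 scale (adjusted p = 0.00546), although A2058 normoxia 2 lay within the range of the other lines. MGAT5B, the neural relative of MGAT5, had 48.2 and 53.5 CPM in hypoxic and 30.4 and 82.4 CPM in normoxic A2058 libraries, against 10.3 to 26.7 CPM in A375 and SKMEL-5, and was higher by 1.46 ± 0.34 (adjusted p = 0.00629). ALG9, a mannosyltransferase of the endoplasmic reticulum, had 8.90 and 6.98 CPM in hypoxic and 7.28 and 6.55 CPM in normoxic A2058 libraries, against 2.67 to 5.12 CPM in the other lines, and was higher by 0.98 ± 0.26 (adjusted p = 0.0141). The libraries of A2058 did not overlap the others for MGAT5B or ALG9. ALG9 shares 24.4% of its exonic bases with AP001781.2 on the same strand, so its value is uncertain.

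Of the remaining calls, TUSC3 was higher in A2058 by 0.74 ± 0.19 (adjusted p = 0.0118), MAN1B1 by 0.72 ± 0.20 (adjusted p = 0.0194), DAD1 by 0.65 ± 0.19 (adjusted p = 0.02), ALG5 by 0.98 ± 0.31 (adjusted p = 0.0287) and MAN2A2 by 0.64 ± 0.22 (adjusted p = 0.048). PRKCSH was lower by a log2 difference of -0.86 ± 0.28 (adjusted p = 0.0363). Each of these 6 overlapped between the lines. Without the libraries that stood apart, TUSC3, MAN1B1, DAD1 and MGAT4C were no longer called, with 11 genes called in all and 28.4% of all tested genes, and without A2058 normoxia 1 alone 6 of the 13 were called. MAN1A1, MAN1C1 and MGAT4A were called under every alternative run. Between A375 and SKMEL-5, edgeR called 0 of the 51, where 0.0102% of all tested genes were called, 1 had an unadjusted p under 0.05, OSTC, and DESeq2 called 0, where 1.78% of all tested genes had that p and DESeq2 called 0.168%.

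**Figure D4:**
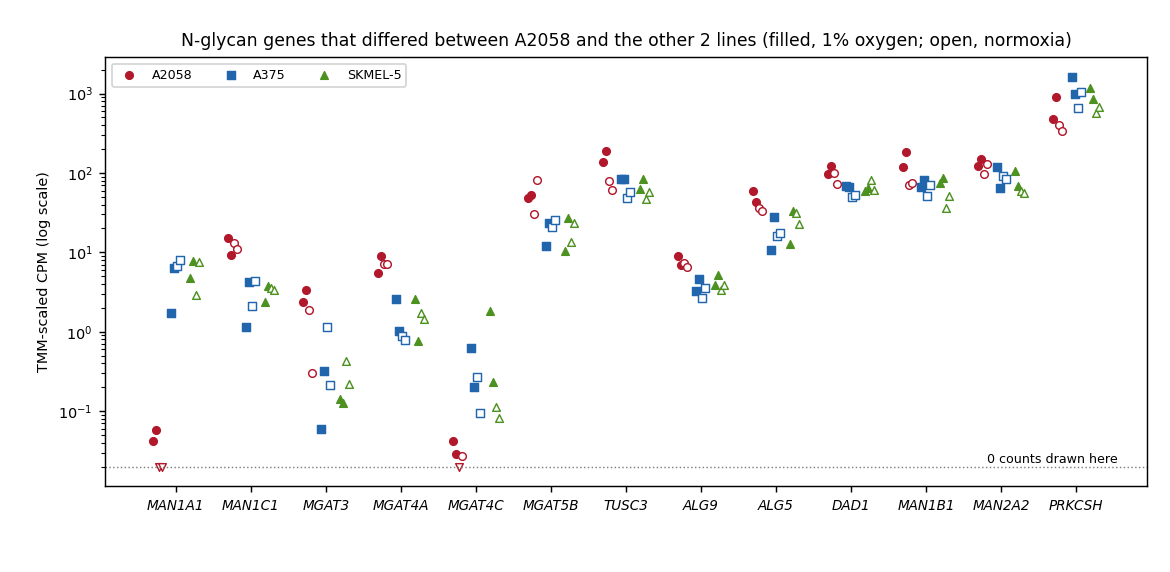
Level in CPM, on a log axis, of the genes called between A2058 and the mean of A375 and SKMEL-5, in every library of each line, hypoxic filled and normoxic open, with downward triangles on the dotted line for libraries with 0 counts. MAN1A1 lies at or under 0.0575 CPM in A2058 and at 1.74 CPM or more in the other lines, and MAN1C1 and MGAT4A lie higher in A2058 without overlap.

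Genes next to the set in the pathway were also counted, from lists of 13 other N-glycan genes, 13 genes of the calnexin cycle and glycoprotein degradation, and 11 endoplasmic reticulum stress targets. In the mean of the 3 lines edgeR called 0 in each list. Of all tested genes, edgeR called 1.12% and DESeq2 7.86%, 19% had an unadjusted p under 0.05 and 51% were above 0. Among the other N-glycan genes 4 had an unadjusted p under 0.05, 2 higher (SLC35A3 and NGLY1) and 2 lower (KRTCAP2 and ENGASE), the median was 0.17, and DESeq2 called 2, SLC35A3 and KRTCAP2. SLC35A3, the Golgi carrier of the GlcNAc donor, differed by 0.86 ± 0.25 (adjusted p = 0.116), and NGLY1, the cytosolic glycanase, by 1.01 ± 0.33 (adjusted p = 0.149). KRTCAP2, a subunit of the STT3A form of oligosaccharyltransferase, had 2.65 and 1.72 CPM in hypoxic against 8.23 and 7.32 CPM in normoxic A2058 libraries, 5.32 and 2.64 against 7.97 and 7.58 CPM in A375, and 4.75 and 4.18 against 5.04 and 3.64 CPM in SKMEL-5. It was separate and lower in A2058 and A375 and overlapped in SKMEL-5, with a log2 difference over the lines of -0.92 ± 0.28 (adjusted p = 0.134). TMEM258, another subunit in the same list, differed by 0.47 ± 0.28 (adjusted p = 0.375). Of the calnexin cycle and degradation genes 10 of 13 were above 0, 2 had an unadjusted p under 0.05, OS9 and CANX, and DESeq2 called 1, OS9. OS9, a lectin that hands misfolded glycoproteins to degradation, had 196 and 411 CPM in hypoxic against 120 and 143 CPM in normoxic A2058 libraries, 272 and 160 against 128 and 131 CPM in A375, and 229 and 164 against 81.1 and 94.3 CPM in SKMEL-5. It was separate in every line, with a log2 difference of 1.03 ± 0.24 (adjusted p = 0.0693). CANX, the calnexin that binds the glycan glucosidase II has trimmed, differed by 0.64 ± 0.26 (adjusted p = 0.222) and was also separate in every line.

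Of the 11 stress targets, 6 had an unadjusted p under 0.05, 5 higher and 1 lower, where 19% of all tested genes had that p. DESeq2 called 4, where it called 7.86% of all tested genes: DDIT3, DNAJB9 and ATF4, higher, and SDF2L1, lower. ATF4, the stress transcription factor, had 2243 CPM in A375 hypoxia 1 and 1493 CPM in SKMEL-5 hypoxia 1, libraries that stood apart, against 497 and 451 CPM in the other hypoxic libraries of those lines and 235, 376, 221 and 337 CPM in their normoxic libraries. DDIT3, its target, followed with 185 and 192 CPM in those 2 libraries, against 26.8 and 28.3 CPM in the other hypoxic ones. HERPUD1 and DNAJB9 were also higher in both, and XBP1 in SKMEL-5 only. The rest of the list went the other way: HSPA5, HSP90B1, HYOU1, PDIA4, CRELD2 and SDF2L1 were lower in both. HSPA5 had 647 against 925 CPM in A375 and 443 against 819 CPM in SKMEL-5. In A2058 the library that stood apart had 408 CPM of ATF4 and 12.8 CPM of DDIT3, below the 502 and 14.9 CPM of the other hypoxic library. In A375 and SKMEL-5, high ATF4 and DDIT3, low HSPA5 and low DOLK, ALG1, MGAT2 and MAGT1 were thus in the same libraries. A link between them was not tested. In A2058, low DOLK, ALG1 and MGAT2 came without high ATF4 or DDIT3, and MAGT1 was highest in that library, at 92.3 CPM.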

How the data were processed

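RNA from 12 libraries of 3 melanoma lines was sequenced by the study, and the authors deposited 1 table of raw read counts per gene with Ensembl identifiers. Per the submitters' processing notes, reads were handled with bcl2fastq 2.20, Trim Galore 0.6.1 and STAR 2.5.0a on GRCh38; for the counting tool, its use of strand and its annotation the sources used here give nothing. Symbols, exon lengths, overlaps and coordinates came from GENCODE 29 (GRCh38). Libraries are described by the series as biological duplicates, and p-values take all 12 as independent.

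Counts of 33831569 to 54202819 per library were fitted with edgeR 4.0.16 (limma 3.58.1, R 4.3.3): genes kept with a count minimum of 10 and a total of at least 15 (19636, all 51 N-glycan genes among them), TMM scaling, 6 group means, quasi-likelihood F tests with 6 residual degrees of freedom, Benjamini-Hochberg adjustment over all genes tested and a threshold of 0.05. Log2 differences are hypoxia minus normoxia or A2058 minus the other lines, and their SE is the log2 difference divided by the square root of F. Paralogue ratios used counts plus 2 and exact permutation within lines. DESeq2 1.42.0 was an alternative. On simulated data for the mean of the 3 lines (19636 genes), 7 of 100 genes changed 2-fold and 63 of 100 changed 3-fold were recovered, with 4 false calls. Intervals and floors cover counting error only, at 95% confidence.

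The genes, steps and lists were chosen with earlier results of these data known. Values in every library were given for genes called for hypoxia, the 3 largest positive and negative differences above 5 CPM, the smallest p of each step, up to 8 genes called between lines, and STT3A, STT3B, TUSC3, MAGT1, GANAB, MAN1B1, MGAT3 and MGAT5; others named (UGGT2, DDOST, PRKCSH, OS9, KRTCAP2, ATF4, DDIT3) were chosen after their values were seen. Promoter windows came from RefSeq for 43 of the 51 genes.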

Additional observations from a re-analysis of the deposited data

Results flagged for a closer look

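In 3 genes of the set the hypoxic libraries lay above the normoxic ones without overlap in 1 line and below them in another, where 5.86% of all tested genes did, so the count is near that of genes in general. ALG2, a cytosolic mannosyltransferase, had a log2 difference, hypoxia minus normoxia, of 0.32 in A375 and -0.24 in SKMEL-5. MGAT3, the bisecting GlcNAc-transferase, had 1.37 in A2058 and -1.25 in SKMEL-5, at levels of at most 3.33 CPM in any library. MAN1A1, which had 2 counts or fewer in each A2058 library, is given with no log2 difference. edgeR's test of equal responses in the 3 lines gave an unadjusted p of 0.477 for ALG2 and 0.112 for MGAT3, so neither difference between lines passed the test.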

How the results depend on the processing

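For the mean of the 3 lines, 0 genes of the set were called. Without the low-count filter 2 were, DPM3 and GANAB, and DESeq2 called 4. With 1 library left out at a time, the log2 difference of TUSC3 lay between 0.72 and 0.87. In A2058 DESeq2 called 1. A2058 against the other lines gave 6 to 15 calls when 1 library was left out, against 13. Over all genes, 220 were called for the mean of the 3 lines, against 1855 without the filter, 30 without the 3 libraries that stood apart, 1543 by DESeq2 and 91 with the replicate block.

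Signs were compared for the genes of the set picked for values in every library, those at an unadjusted p under 0.05, and the ratios. They turned as follows, and the cause was not tested. Turns of other genes are not listed. Without the 3 libraries that stood apart, log2 differences became 0.09 for ALG1, 0.04 for DOLK, 0.25 for MAN1C1, -0.40 for MGAT4A and 0.08 for MGAT5B, and ratios -0.07 for STT3A/STT3B, 0.12 for UGGT1/UGGT2, -0.34 for MGAT4A/MGAT4B and -0.18 for RPN1/RPN2. MGAT3 became 0.06 in the mean of A2058 and SKMEL-5. With 1 library left out, ranges were -0.32 to 0.42 for MAGT1, -0.55 to 0.07 for MAN1C1, -1.12 to 0.05 for MGAT3, -0.05 to 0.68 for MGAT5, -0.46 to 0.11 for MGAT5B, -0.08 to 0.52 for MAN2A1/MAN2A2, -0.12 to 0.24 for MGAT4A/MGAT4B and -0.08 to 0.49 for RPN1/RPN2.

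Libraries with the same replicate number deviated together at correlations of -0.304 for A2058, 0.234 for A375 and 0.255 for SKMEL-5, not over 0.1 in every line, so the numbers were not taken as pairs. Normoxia 2 scored below normoxia 1 on the first within-line component in all 3 lines (-47.9 and -7.45 in A2058, -64 and -30.3 in A375, -63.1 and -28.6 in SKMEL-5), so libraries of 1 number may share a source of spread across lines, which the labels do not give. With the replicate block 0 genes of the set were called in the mean of the 3 lines, and MAGT1 became -0.01. Line contrasts were not run with the block. With 2 libraries per group, 2-fold changes were rarely recoverable, and MAN1A1 and MGAT4C in A2058 lay near the limit of detection.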
